A study of Mus musculus with 24 samples.

Results

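The 37 genes described here are Atf4, which encodes the transcription factor of the integrated stress response, with its partner factors and known target genes. They were taken by symbol from a list that leaves out the enzymes of serine and one-carbon metabolism. The list is 37 of the 55414 Ensembl genes in the count table, and all 37 were among the 16029 genes that passed the expression filter. Each symbol was matched to 1 gene ID, and Ddit3 had a second gene ID with 0 counts in every tumour.

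Bulk RNA was sequenced from 24 D4M tumours, 6 in each of 4 groups, all grown in wild-type C57BL/6 mice and each giving 1 library. Nothing in the labels says whether the tumours of a group came from separate experiments, so p-values measure the spread between these tumours. D4M is a mouse melanoma cell line. All agents were injected into the peritoneum. Mice received brequinar with an antibody against the checkpoint receptor PD-1 (BRQ+PD-1), brequinar with the control antibody IgG2a (BRQ+IgG2a), anti-PD-1 alone (PD-1), or IgG2a alone (IgG2a). Brequinar blocks dihydroorotate dehydrogenase (DHODH), a mitochondrial step in making pyrimidines from scratch. Every mouse therefore carried an antibody, and the IgG2a group is an antibody control and not an untreated one. The labels state no dose, injection schedule, implantation site or day of harvest.

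Library totals ran from 19106205 to 34282319 counts, and levels are given as CPM, read counts relative to TMM-scaled library size. In whole tumours, fewer cells of a type and less RNA per cell cannot be told apart. Of 11 melanocyte and melanoma markers, 6 passed the filter; Tyr and Dct, enzymes of pigment synthesis, were at 0 in every tumour, Mitf lay at 11.4 to 52.0 CPM, and Axl, a receptor of dedifferentiated melanoma, at 618 to 1019 CPM. Skeletal muscle transcripts set 4 libraries apart: BRQ+IgG2a replicate 4, PD-1 replicate 6, and IgG2a replicates 2 and 3. Acta1, the actin of skeletal muscle, stood at 4070 to 14990 CPM in these and at no more than 425 CPM in the other 20 tumours.

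The integrated stress response starts when a kinase phosphorylates the translation factor eIF2. PERK (Eif2ak3) responds to unfolded protein in the endoplasmic reticulum, GCN2 (Eif2ak4) to uncharged tRNA, PKR (Eif2ak2) to double-stranded RNA and HRI (Eif2ak1) to haem shortage and mitochondrial stress. Most translation then drops, while translation of the Atf4 message rises. ATF4 pairs with C/EBP proteins on a composite DNA element, the C/EBP-ATF response element (CARE), and switches on amino acid uptake, amino acid synthesis, tRNA charging and its own brakes. RNA levels bear on the transcriptional step of this pathway and do not measure the phosphorylation or translation steps. A listed gene can also change for other reasons, so a lower level is not by itself a measure of ATF4 activity.

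RefSeq promoter windows on GRCm38.p6 were found for 28 of the 37 genes, 31 windows in all, since Atf5, Slc7a1 and Vldlr have 2 each. Within the 250 bases before the start, both strands were searched for the CARE letters TGATGNAA (TTNCATCA on the other strand). Matches were present in 10 of the 31 windows (32.3%), against 1134 of all 32851 RefSeq windows of the same length (3.45%). Counted by gene, 10 of 28 held a match in at least 1 window (35.7%), against 1056 of 27025 RefSeq genes (3.91%). Of these 10 matches, 9 are shown with their flanks, and the sequence of the other is not reported here. Each 30-base stretch is read 5′ to 3′ on the strand that spells TGATGNAA, and capitals mark the match.
Chac1: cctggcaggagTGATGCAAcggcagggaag
Gars: cgcccggtgcaTGATGAAAtagcgcagcca
Asns: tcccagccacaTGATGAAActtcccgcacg
Pycr1: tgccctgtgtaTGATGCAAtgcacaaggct
Tars: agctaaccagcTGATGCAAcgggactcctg
Atf3: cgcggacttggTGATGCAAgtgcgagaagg
Nupr1: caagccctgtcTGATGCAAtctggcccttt
Vldlr: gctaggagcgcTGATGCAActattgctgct
Herpud1: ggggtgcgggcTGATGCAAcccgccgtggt

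The variable base was C in 7 of the 9 sites shown and A in those of Asns and Gars. Their positions on GRCm38.p6 are chr2:119351038-119351067 (Chac1, minus strand), chr6:55037960-55037989 (Gars, minus strand), chr6:7693214-7693243 (Asns, minus strand) and chr11:120643833-120643862 (Pycr1, minus strand). The others lie at chr15:11399655-11399684 (Tars, plus strand), chr1:191183425-191183454 (Atf3, plus strand), chr7:126625562-126625591 (Nupr1, plus strand), chr19:27216809-27216838 (Vldlr, minus strand) and chr8:94386306-94386335 (Herpud1, minus strand). Distance to the start differed widely: the match began 15 bases before it in Tars, 23 in Asns and 30 in Gars, and 193 in Chac1 and 200 in Vldlr. A second motif, the cyclic AMP response element-like TGACGTNA (TNACGTCA on the other strand), matched 2 of the 31 windows, those of Atf3 and Ppp1r15a (6.45%), against 828 of 32851 (2.52%). No match overlapped one of the other motif.

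The whole windows of 3 genes are printed for the genes that carried the results described next. Chac1 and Gars had the lowest adjusted p with brequinar and hold a CARE match. Trib3, which followed Chac1 in size of estimate in the list of feedback and growth brakes, holds no match of either motif. The windows span chr2:119350992-119351241 (plus strand), chr6:55037751-55038000 (plus strand) and chr2:152344061-152344310 (minus strand), end at the base before the start, and are written on the gene's own strand with the match in capitals.
Chac1: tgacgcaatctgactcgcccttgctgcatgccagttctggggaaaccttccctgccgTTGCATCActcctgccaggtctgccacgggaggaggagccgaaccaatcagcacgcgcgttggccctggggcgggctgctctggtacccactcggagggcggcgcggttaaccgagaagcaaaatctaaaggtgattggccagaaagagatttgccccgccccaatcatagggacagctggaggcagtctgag
Gars: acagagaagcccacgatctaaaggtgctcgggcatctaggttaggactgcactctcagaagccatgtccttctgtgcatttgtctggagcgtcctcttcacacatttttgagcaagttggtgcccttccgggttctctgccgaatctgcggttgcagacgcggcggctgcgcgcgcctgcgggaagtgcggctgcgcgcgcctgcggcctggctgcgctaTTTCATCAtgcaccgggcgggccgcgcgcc
Trib3: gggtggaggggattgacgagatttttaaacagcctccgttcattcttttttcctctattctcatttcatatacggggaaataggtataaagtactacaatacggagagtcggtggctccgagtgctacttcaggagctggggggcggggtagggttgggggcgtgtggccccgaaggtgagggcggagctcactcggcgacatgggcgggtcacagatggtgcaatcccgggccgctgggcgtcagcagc

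No match says only that these letters are absent from the window. The windows of Gpt2, Adm2 and Atf4, which were also called lower, held neither motif.

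Brequinar was examined first over both antibodies, as the mean of BRQ+PD-1 against PD-1 and BRQ+IgG2a against IgG2a. Of the 37 genes, 13 fell and 0 rose at an adjusted p under 0.05 (edgeR quasi-likelihood test, Benjamini-Hochberg over 16029 genes). In the same contrast 5.57% of all genes tested were called lower. The calls were uneven over the roles of the genes. They took in 4 of 5 genes listed as feedback and growth brakes, 3 of 5 amino acid synthesis enzymes and 2 of 5 amino acid transporters. Also called were 2 of 11 tRNA charging and export genes, 1 of 4 secreted, receptor and endoplasmic reticulum genes, and 1 of 7 transcription factors. Chac1 was counted with the brakes, although it encodes an enzyme that degrades glutathione. The median log2 fold change was -0.24 over the 37 genes and 0.0066 over all genes tested, and 35 of 37 estimates lay below 0, against 48.8% of all genes.

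**Figure D1:**
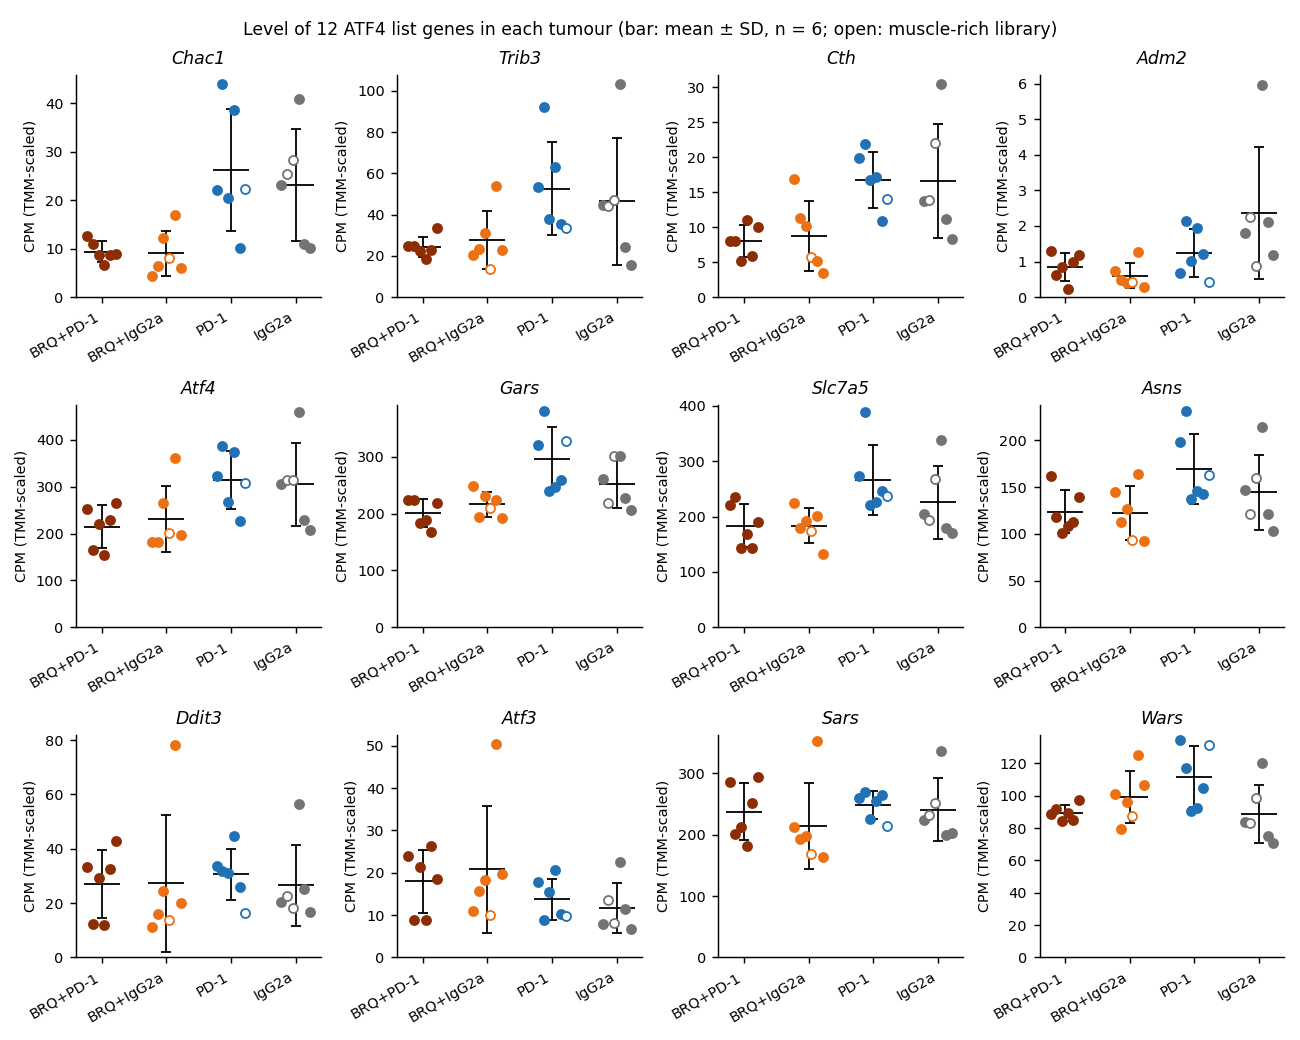
Level of 12 of the genes in each tumour (CPM, TMM-scaled; 1 point per tumour, bar for the mean ± SD, n = 6 per group, open points for the 4 muscle-rich libraries). Chac1 lay at 4.42 to 16.9 CPM in the 12 brequinar tumours and at 10.1 to 43.9 CPM in the other 12, while the ranges of Ddit3 and Sars overlapped in all 4 groups.

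Among the transcription factors, Atf4 (ENSMUSG00000042406) ran from 154 to 265 CPM with a median of 226 in BRQ+PD-1 tumours and from 226 to 387 CPM with a median of 316 in PD-1 tumours. It ran from 181 to 362 CPM with a median of 199 in BRQ+IgG2a tumours and from 208 to 460 CPM with a median of 310 in IgG2a tumours. The groups overlapped in each comparison, and 11 of 12 brequinar tumours lay below the mean of their own control group. Atf4 fell by 0.48 ± 0.14 on the log2 scale (SE) with an adjusted p of 0.0272 (edgeR). This call was lost without PD-1 replicate 2, at an adjusted p of 0.0528, and without the 4 muscle-rich libraries, at 0.0814.

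Ddit3, which encodes the stress factor CHOP, had medians of 30.9 and 18.04 CPM in BRQ+PD-1 and BRQ+IgG2a tumours and of 31.5 and 21.5 CPM in PD-1 and IgG2a tumours. Its range was widest in BRQ+IgG2a, 11.1 to 78.1 CPM, against 16.7 to 56.4 CPM in IgG2a, 12.1 to 43.0 CPM in BRQ+PD-1 and 16.2 to 44.7 CPM in PD-1. The groups overlapped, and the estimate was -0.07 ± 0.31 with an adjusted p of 0.909 (95% interval -0.71 to 0.57). Atf3, a stress-induced partner of ATF4 and CHOP, had the highest estimate of the 37, 0.60 ± 0.27, with an adjusted p of 0.154. Its medians were 19.9 and 17.1 CPM in BRQ+PD-1 and BRQ+IgG2a tumours, against 12.9 and 9.84 CPM in PD-1 and IgG2a tumours. Atf5, Cebpb, Cebpg and Nupr1, the remaining factors, had estimates from -0.21 to 0.03 and none was called.

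Chac1 (ENSMUSG00000027313), listed with the brakes, had the lowest adjusted p of the 37 genes with brequinar over both antibodies. It encodes an enzyme that degrades glutathione and is a target of ATF4. Its place among the brakes is by list only. Its level was 6.62 to 12.7 CPM with a median of 8.76 in BRQ+PD-1 tumours and 10.2 to 43.9 CPM with a median of 22.2 in PD-1 tumours. In BRQ+IgG2a tumours it was 4.42 to 16.9 CPM with a median of 7.26, against 10.1 to 40.9 CPM with a median of 24.2 in IgG2a tumours. Only PD-1 replicate 5 reached into the BRQ+PD-1 range, the BRQ+IgG2a and IgG2a groups overlapped, and all 12 brequinar tumours lay below the mean of their control group. Chac1 fell by 1.43 ± 0.26 (adjusted p 0.00133) and kept this call in each of the 24 fits that left out 1 library.

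Trib3, a pseudokinase that binds and restrains ATF4, ran from 18.2 to 33.4 CPM with a median of 23.8 in BRQ+PD-1 tumours and from 33.3 to 92.3 CPM with a median of 45.6 in PD-1 tumours. In BRQ+IgG2a tumours it ran from 13.5 to 53.7 CPM with a median of 23.1, against 15.4 to 103 CPM with a median of 44.3 in IgG2a tumours. With anti-PD-1 the groups overlapped only between 33.3 and 33.4 CPM, and with IgG2a between 15.4 and 53.7 CPM. Trib3 fell by 0.94 ± 0.26 (adjusted p 0.0223, below the control mean in 11 of 12 tumours).

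Eif4ebp1 encodes a repressor of cap-dependent translation. It had medians of 107 CPM in BRQ+PD-1 (73.1 to 132) and 98.1 CPM in BRQ+IgG2a (82.6 to 159), against 148 CPM in PD-1 (121 to 164) and 133 CPM in IgG2a (102 to 181). It fell by 0.43 ± 0.11 (adjusted p 0.0136) in edgeR's test, and the call was lost without the muscle-rich libraries at 0.0526. Ddit4, or REDD1, an inhibitor of mTORC1, ran from 41.5 to 76.5 CPM in BRQ+PD-1 and 59.4 to 105 CPM in BRQ+IgG2a, against 73.4 to 145 CPM in PD-1 and 66.5 to 105 CPM in IgG2a. Its medians were 68.5 and 76.9 CPM with brequinar and 94.9 and 93.4 CPM in the PD-1 and IgG2a groups. Ddit4 fell by 0.42 ± 0.12 (adjusted p 0.0292), and its adjusted p was 0.0506 to 0.0527 without BRQ+PD-1 replicate 2, BRQ+IgG2a replicate 1, PD-1 replicate 4 or IgG2a replicate 5. Ppp1r15a, or GADD34, which directs the phosphatase that ends the response, was the 1 brake not called, at -0.18 ± 0.27 (adjusted p 0.706).

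Among the transporters, Slc1a5, which imports neutral amino acids including glutamine, ran from 62.6 to 79.8 CPM with a median of 66.2 in BRQ+PD-1 and from 57.3 to 85.6 CPM with a median of 67.0 in BRQ+IgG2a. It ran from 72.6 to 108 CPM with a median of 95.3 in PD-1 and from 71.5 to 109 CPM with a median of 83.6 in IgG2a. Slc1a5 fell by 0.34 ± 0.08 (adjusted p 0.0102, 11 of 12 tumours below the control mean).

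Slc7a5, the light chain of the leucine transporter LAT1, had medians of 180 CPM in BRQ+PD-1 (143 to 235) and 186 CPM in BRQ+IgG2a (132 to 224), against 242 CPM in PD-1 (220 to 389) and 199 CPM in IgG2a (170 to 338). It fell by 0.42 ± 0.13 (adjusted p 0.0311). The call was lost without PD-1 replicate 2 (0.0637), BRQ+IgG2a replicate 6 (0.0511), BRQ+PD-1 replicate 3 (0.0584) or the muscle-rich libraries (0.0643). Its heavy-chain partner Slc3a2 was not called, at -0.21 ± 0.12 (adjusted p 0.233), and neither were the arginine and lysine transporters Slc7a1 (-0.26 ± 0.15) and Slc7a3 (-0.11 ± 0.22).

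Among the synthesis enzymes, Cth, which makes cysteine from cystathionine, had medians of 7.99 CPM in BRQ+PD-1 (5.17 to 11.1) and 7.93 CPM in BRQ+IgG2a (3.39 to 16.9), against 16.9 CPM in PD-1 (10.8 to 21.95) and 13.8 CPM in IgG2a (8.25 to 30.5). The BRQ+PD-1 and PD-1 groups shared only the stretch between 10.8 and 11.1 CPM. Cth fell by 0.99 ± 0.24 (adjusted p 0.00867) and kept the call in all 24 fits without 1 library. Gpt2, a mitochondrial alanine aminotransferase, ran from 35.6 to 54.8 CPM in BRQ+PD-1 and 28.0 to 52.2 CPM in BRQ+IgG2a, against 47.9 to 96.8 CPM in PD-1 and 42.9 to 94.8 CPM in IgG2a. Its medians were 42.9 and 48.6 CPM with brequinar and 59.7 and 58.5 CPM in the PD-1 and IgG2a groups, and it fell by 0.53 ± 0.14 (adjusted p 0.0157, 0.0604 without the muscle-rich libraries).

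Aldh18a1, which starts proline synthesis from glutamate, ran from 122 to 150 CPM with a median of 142 in BRQ+PD-1 and from 118 to 161 CPM with a median of 140 in BRQ+IgG2a. It ran from 141 to 194 CPM with a median of 164 in PD-1 and from 141 to 226 CPM with a median of 156 in IgG2a. The shift was small but shared by 12 of 12 brequinar tumours: Aldh18a1 fell by 0.27 ± 0.08 (adjusted p 0.0282). That p was 0.0533 to 0.056 without PD-1 replicate 1, PD-1 replicate 2 or BRQ+PD-1 replicate 3. Asns, asparagine synthetase, the textbook CARE-driven gene, was not called. It had medians of 115 CPM in BRQ+PD-1 (101 to 162) and 120 CPM in BRQ+IgG2a (92.6 to 164), against 154 CPM in PD-1 (137 to 231) and 134 CPM in IgG2a (102 to 214), and an estimate of -0.35 ± 0.13 (adjusted p 0.0711). Pycr1, the last step of proline synthesis, stood close to it at -0.32 ± 0.11 (adjusted p 0.0639).

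The tRNA genes had small estimates, all 11 below 0, and 2 were called. Gars, glycyl-tRNA synthetase (ENSMUSG00000029777), ran from 168 to 224 CPM with a median of 204 in BRQ+PD-1 and from 240 to 381 CPM with a median of 291 in PD-1. The 2 groups did not overlap. In BRQ+IgG2a it ran from 192 to 249 CPM with a median of 217, against 206 to 301 CPM with a median of 244 in IgG2a, and these groups overlapped. Gars fell by 0.39 ± 0.09 (adjusted p 0.00463, 12 of 12 tumours) and kept its call in all 24 fits without 1 library.

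Cars, cysteinyl-tRNA synthetase, had medians of 70.6 CPM in BRQ+PD-1 (61.6 to 89.3) and 73.6 CPM in BRQ+IgG2a (55.2 to 82.7), against 85.3 CPM in PD-1 (75.8 to 101) and 78.0 CPM in IgG2a (68.7 to 110). It fell by 0.26 ± 0.09 (adjusted p 0.0458). Cars kept this call in only 10 of the 24 fits that left out 1 library, with a highest adjusted p of 0.0847 without PD-1 replicate 2. Sars, seryl-tRNA synthetase, had medians of 232 CPM in BRQ+PD-1 (181 to 293) and 195 CPM in BRQ+IgG2a (164 to 352), against 257 CPM in PD-1 (214 to 270) and 228 CPM in IgG2a (200 to 336), with an estimate of -0.12 ± 0.12 (adjusted p 0.551). Estimates of the other synthetases ran from -0.27 in Tars (adjusted p 0.0525) to -0.08 in Wars (adjusted p 0.593), and that of the tRNA exporter Xpot was -0.21 ± 0.11 (adjusted p 0.215).

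In the last group, Adm2, a secreted peptide of the adrenomedullin family, was scarce, with 6 to 168 counts per tumour. It ran from 0.221 to 1.30 CPM with a median of 0.908 in BRQ+PD-1 and from 0.297 to 1.27 CPM with a median of 0.456 in BRQ+IgG2a, against 0.417 to 2.15 CPM with a median of 1.12 in PD-1 and 0.887 to 5.97 CPM with a median of 1.95 in IgG2a. It fell by 1.26 ± 0.34 (adjusted p 0.0178, 10 of 12 tumours). Taken singly, Adm2 was called lower in BRQ+IgG2a against IgG2a and not in BRQ+PD-1 against PD-1. The 5.97 CPM in the IgG2a group was that of replicate 4, with the nearest tumour at 2.25 CPM. The glycoprotein hormone Stc2, the lipoprotein receptor Vldlr and Herpud1, a component of endoplasmic reticulum-associated degradation, had estimates between -0.12 and -0.10 and were not called.

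The 2 brequinar comparisons share no tumour. BRQ+PD-1 against PD-1 and BRQ+IgG2a against IgG2a both had estimates below 0 for 31 of the 37 genes (83.8%), against 5384 of all 16029 genes (33.6%). Across the 37 genes the estimates of the comparisons correlated with Pearson's r = 0.67, and across all genes with r = 0.50, a description only, since genes are not independent replicates and the fits share 1 estimate of spread.

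**Figure D2:**
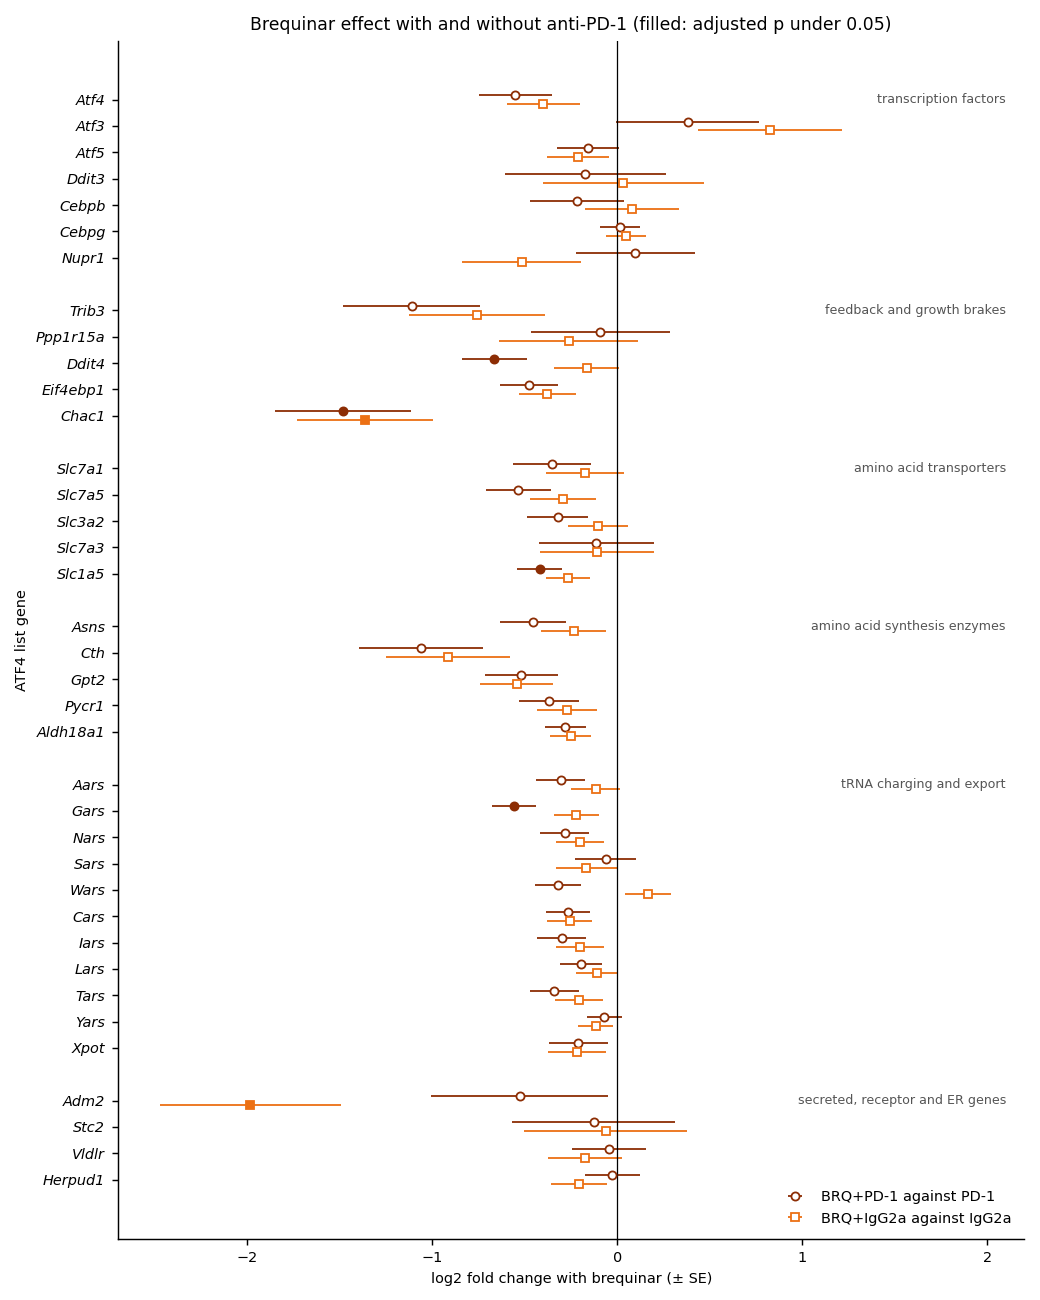
Log2 fold change (± SE) of each of the 37 genes with brequinar, for BRQ+PD-1 against PD-1 (circles) and BRQ+IgG2a against IgG2a (squares), grouped by role; filled symbols have an adjusted p under 0.05. Most symbols lie left of 0 in both comparisons, with Chac1 at -1.48 and -1.37 called in both.

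In BRQ+PD-1 against PD-1, 4 of the 37 genes fell and 0 rose, where 2.66% of all genes tested were called lower. The median estimate was -0.30, against 0.0128 over all genes. These were Gars (-0.56 ± 0.12, adjusted p 0.0115), Chac1 (-1.48 ± 0.37, adjusted p 0.0227), Ddit4 (-0.67 ± 0.18, adjusted p 0.0292) and Slc1a5 (-0.42 ± 0.12, adjusted p 0.0416), each below the PD-1 mean in 6 of 6 tumours. Trib3 (-1.11 ± 0.37, adjusted p 0.0828) and Cth (-1.06 ± 0.33, adjusted p 0.067) had larger estimates than 3 of the 4 and were not called. Gars kept its call in all 12 fits without 1 of these tumours. Chac1 lost it without PD-1 replicate 2 (0.065) or BRQ+PD-1 replicate 3 (0.054), while Ddit4 kept it in 6 of 12, with a highest adjusted p of 0.0687 without BRQ+PD-1 replicate 1, and Slc1a5 in 4 of 12, with a highest of 0.109 without PD-1 replicate 6.

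In BRQ+IgG2a against IgG2a, 2 of the 37 genes fell and 0 rose, where 0.493% of all genes were called lower. They were Adm2 (-1.98 ± 0.49, adjusted p 0.0227) and Chac1 (-1.37 ± 0.37, adjusted p 0.0397), with 6 of 6 BRQ+IgG2a tumours below the mean of IgG2a for both. The median of the 37 was -0.21, against -0.0073 over all genes. Adm2 was not called without IgG2a replicate 4 (0.0881), the tumour with 5.97 CPM, nor without BRQ+IgG2a replicate 3 (0.0573) or replicate 6 (0.0737). Chac1 kept its call in 3 of 12 fits without 1 tumour, with a highest adjusted p of 0.11 without BRQ+IgG2a replicate 6, and lost it without the muscle-rich libraries (0.167).

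Set against IgG2a, the combined treatment gave 1 gene called lower of 37, Chac1 at -1.30 ± 0.37 (adjusted p 0.048), and 0 higher, where 1.43% of all genes were called lower and 2.48% higher. Chac1 kept this call in 2 of 12 fits without 1 tumour, with a highest adjusted p of 0.102 without IgG2a replicate 3. Cth, at -1.05 ± 0.33, and Adm2, at -1.46 ± 0.48, had the next lowest p, with adjusted p of 0.0746 and 0.0799 (edgeR). This comparison shares its IgG2a tumours with the comparison of BRQ+IgG2a, whose estimates for Cth were -0.92 ± 0.33 and for Adm2 -1.98 ± 0.49.

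Anti-PD-1 alone moved none of the 37 genes past the threshold in PD-1 against IgG2a, where 0.0187% of all genes were called. At an unadjusted p under 0.05 there was 1 gene, and DESeq2 called 0. The gene was Wars, tryptophanyl-tRNA synthetase, which interferon gamma also induces, at 90.8 to 134 CPM with a median of 111 in PD-1 and 71.1 to 120 CPM with a median of 83.5 in IgG2a (0.33 ± 0.12, adjusted p 0.567). All 6 PD-1 tumours lay above the IgG2a mean, and the groups overlapped. With brequinar present, BRQ+PD-1 against BRQ+IgG2a had 0 of 37 genes called, 0 at an unadjusted p under 0.05 and 0 by DESeq2, in a comparison with 0% of all genes called. Estimates ran from -0.31 ± 0.18 in Ddit4 to 0.52 ± 0.49 in Adm2.

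Whether the brequinar difference changed with anti-PD-1 was tested as an interaction. None of the 37 genes was called, as for 0% of all genes, with 2 at an unadjusted p under 0.05 and 0 by DESeq2. These were Wars, at -0.48 ± 0.18 (95% interval -0.85 to -0.12, adjusted p 0.554), and Adm2, at 1.46 ± 0.68 (0.04 to 2.87, adjusted p 0.636). Wars had brequinar estimates of -0.32 ± 0.12 with anti-PD-1 and 0.16 ± 0.12 with IgG2a, and neither was called. For Chac1 the interaction was -0.12 with a 95% interval of -1.19 to 0.95, and for Atf4 -0.15 with an interval of -0.73 to 0.43.

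Genes upstream and beside the list were counted from lists of the same pathway. Of 13 genes for eIF2 kinases, eIF2 and its exchange factor, 2 rose and 1 fell in the brequinar main effect, in which 6.91% of all genes were called higher and 5.57% lower. The 1 called lower is close to that share. Eif2ak2, the interferon-induced kinase PKR, ran from 34.7 to 63.7 CPM with a median of 53.0 in BRQ+PD-1 and from 55.1 to 66.2 CPM with a median of 56.1 in BRQ+IgG2a, against 41.5 to 53.0 CPM with a median of 46.2 in PD-1 and 37.2 to 41.9 CPM with a median of 39.8 in IgG2a. It rose by 0.33 ± 0.07 (adjusted p 0.00482). Taken singly, its estimate was 0.12 ± 0.10 in BRQ+PD-1 against PD-1 (adjusted p 0.526) and 0.54 ± 0.10 in BRQ+IgG2a against IgG2a (adjusted p 0.00379), and 0 of the 13 genes had a called interaction, with 1 at an unadjusted p under 0.05. Eif2ak4, the amino acid sensor GCN2, rose by 0.17 ± 0.05 (adjusted p 0.0286), with medians of 33.4 and 34.3 CPM in BRQ+PD-1 and BRQ+IgG2a, against 29.3 and 32.5 CPM in PD-1 and IgG2a. Eif2ak3, the endoplasmic reticulum sensor PERK, was not called at 0.07 ± 0.05 (adjusted p 0.41). Eif2s1, the phosphorylated subunit of eIF2, fell by 0.20 ± 0.06 (adjusted p 0.0237).

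Of 20 other reported ATF4 targets, 4 fell and 1 rose, beside the same 5.57% and 6.91% of all genes, so that the 1 called higher is near the share over all genes. Sesn2, a sestrin that restrains mTORC1 and is also a p53 target, ran from 34.3 to 51.7 CPM with a median of 39.8 in BRQ+PD-1 and from 36.1 to 49.7 CPM with a median of 39.2 in BRQ+IgG2a. It ran from 52.7 to 111 CPM with a median of 71.3 in PD-1 and from 45.9 to 91.7 CPM with a median of 63.1 in IgG2a. Sesn2 fell by 0.80 ± 0.12 (adjusted p 0.000282). Fgf21, a secreted metabolic hormone, fell by 2.58 ± 0.46 (adjusted p 0.00104), on 0 to 9 counts per brequinar tumour and 7 to 45 in the others. Jdp2, which pairs with ATF and AP-1 proteins, fell by 0.47 ± 0.11 and Tnfrsf10b, a death receptor of the TRAIL ligand, by 0.32 ± 0.08. Sesn3, a sestrin that FOXO factors also induce, moved the other way, by 1.26 ± 0.11 (adjusted p 7.27e-07).

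Against the same 5.57% of all genes called lower, 2 of 8 further cytosolic tRNA synthetases fell, Rars by 0.27 ± 0.07 and Farsb by 0.22 ± 0.07. Of 7 mitochondrial stress genes 2 fell, the chaperonins Hspd1 (-0.24 ± 0.06) and Hspe1 (-0.31 ± 0.08). Of 18 genes of the XBP1 and ATF6 branches, which answer unfolded protein beside PERK, 0 were called, with 1 at an unadjusted p under 0.05, and their median was -0.01. Hspa5, the chaperone BiP, had medians of 1081 and 855 CPM in BRQ+PD-1 and BRQ+IgG2a tumours, against 983 and 937 CPM in PD-1 and IgG2a tumours.

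Some lists of other cell types and responses moved with brequinar in the same libraries, and others did not. In the main effect 9 of 12 T cell markers and 11 of 16 interferon gamma response genes rose, and 3 of 11 macrophage markers rose, where 6.91% of all genes were called higher. In BRQ+PD-1 against PD-1 the counts were 0 of 12, 0 of 16 and 0 of 11 by edgeR, with 2, 1 and 1 at an unadjusted p under 0.05 and 2.38% of all genes called higher. In BRQ+IgG2a against IgG2a they were 9, 11 and 2, with 2.96% of all genes called higher. Their interaction with anti-PD-1 was called for 0 genes of these lists, with 5 T cell, 14 interferon gamma and 1 macrophage gene at an unadjusted p under 0.05. The summed T cell markers ran from 25.9 to 110 CPM in BRQ+PD-1 and 29.8 to 183 CPM in BRQ+IgG2a. They ran from 25.3 to 76.4 CPM in PD-1 and 14.8 to 59.6 CPM in IgG2a. None of the 12 was at 0 in every tumour of the series. The summed interferon gamma genes ran from 1187 to 2042 CPM in BRQ+PD-1 and 1324 to 3138 CPM in BRQ+IgG2a, against 806 to 1709 CPM in PD-1 and 507 to 1372 CPM in IgG2a. Their part in the lower ATF4 targets was not tested. In the main effect, 0 of 9 fibroblast and 0 of 7 endothelial markers were called by edgeR, with 2 and 0 at an unadjusted p under 0.05. Of the 6 melanocyte and melanoma markers tested there, 1 was called higher and 0 lower, beside 6.91% and 5.57% of all genes. Of these 6 estimates 1 lay below 0, and their median was 0.19. Of 12 cell division genes 0 were called by edgeR, with 2 at an unadjusted p under 0.05, and 11 had estimates below 0. In BRQ+PD-1 against PD-1 all 12 lay below 0 with a median of -0.34, beside -0.30 for the 37 genes. In BRQ+IgG2a against IgG2a 5 of 12 did, with a median of 0.02, beside -0.21 for the 37 genes. Neither comparison called any of the 12, and their relation to the 37 genes was not tested. Of 16 skeletal muscle markers 15 were tested, and in the main effect 0 were called and 2 had an unadjusted p under 0.05. Their sum reached 879 CPM in BRQ+PD-1, 18072 CPM in BRQ+IgG2a, 13388 CPM in PD-1 and 51911 CPM in IgG2a at the highest.

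Tumours of the same treatment also differed from each other in the RNA levels of these genes. After group means were removed, the log2 CPM of the other 36 genes was correlated with that of Atf4 over the 24 tumours (100000 permutations within groups, two-sided, Benjamini-Hochberg over all 16028 other genes tested). Pearson's r and Spearman's rho were both positive and past the threshold for 11 of the 36 genes, against 0.518% of all genes. The median r was 0.665 over the 36 genes and -0.015 over all genes, and r was at least 0.6 for 24 of the 36, against 592 of all genes (3.69%). The 24 tumours share their library depth scaling with Atf4, and so do all genes in that background.

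The closest followers were Slc3a2 (r 0.885, rho 0.856), Herpud1 (0.879, 0.882), Chac1 (0.866, 0.853) and Trib3 (0.852, 0.847). Each had an adjusted permutation p of 0.0123 for r and 0.0169 for rho, from a raw p of 1e-05 to 2e-05, where 1e-05 is the smallest that the permutations can give. The other 7 were Ppp1r15a, Eif4ebp1, Ddit3, Sars, Aars, Nars and Atf5, with r from 0.744 to 0.832. The 2 tumours farthest from the median of Atf4 were BRQ+IgG2a replicate 5 and IgG2a replicate 4. Without them r was 0.606 to 0.834 for the 11 genes, and 14 of the 36 genes had r of at least 0.6, against 122 of all genes (0.761%), with a median r of 0.556 over the 36 and 0.009 over all genes. No permutation test was run without them. For Asns r was 0.555 without them and 0.701 with them, and for Xpot 0.402 and 0.649. Without the 4 muscle-rich libraries r of the 11 genes was 0.807 to 0.938.

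**Figure D3:**
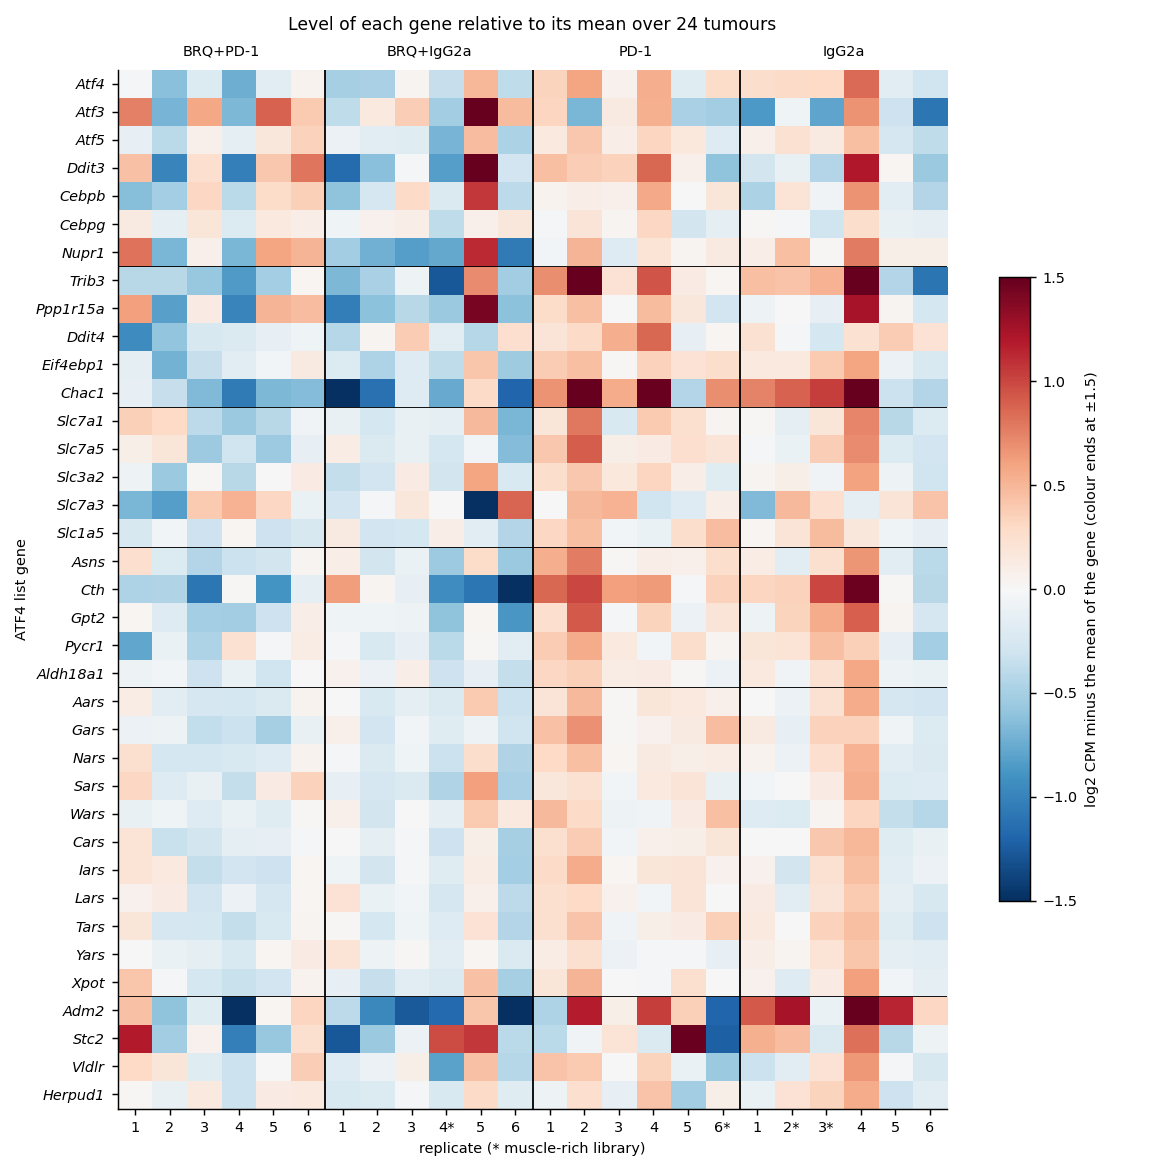
Log2 CPM of each gene minus its mean over the 24 tumours, with tumours in columns by group and genes in rows by role; red is above and blue below the mean, and the colour ends at ±1.5. Whole columns share a colour: BRQ+IgG2a replicate 5, PD-1 replicate 2 and IgG2a replicate 4 are red across most rows.

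A few tumours ran high across most of the list. IgG2a replicate 4 had the highest level of its group for 33 of the 37 genes, BRQ+IgG2a replicate 5 for 27 and PD-1 replicate 2 for 25. BRQ+IgG2a replicate 5 led its group for Atf4 (362 CPM), Ddit3 (78.1), Atf3 (50.4), Chac1 (16.9) and Asns (164), while its Slc7a5, Cth and Slc1a5 were within the range of the other 5. IgG2a replicate 4 led for Atf4 (460 CPM), Ddit3 (56.4), Atf3 (22.7), Chac1 (40.9) and Asns (214), and also for Cth (30.5). PD-1 replicate 2 led for Atf4 (387 CPM), Chac1 (43.9), Asns (231), Slc7a5 (389) and Gars (381), while its Atf3, at 8.86 CPM, was the lowest of the group.

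By calls, following Atf4 between tumours and being lower with brequinar did not coincide gene by gene. The spread between tumours of a group enters both the correlations and the calls, so these counts cannot separate the 2 traits. Without BRQ+IgG2a replicate 5, 22 of the 37 genes were called in the main effect, against 13 with it. Of the 11 genes past the threshold with Atf4, 3 were called lower in the main effect (Chac1, Trib3 and Eif4ebp1) and their median estimate was -0.21. Of the other 25, 9 were called lower and the median was -0.26. Slc1a5 (r 0.003) and Ddit4 (r 0.025) fell with brequinar and showed almost no relation with Atf4, and Cth had r 0.224. Other called genes outside the 11 had higher r, with 0.689 for Gpt2, 0.674 for Cars and 0.633 for Adm2. Ddit3 (r 0.816), Herpud1 and Slc3a2 followed Atf4 closely and were not called. Adjusted p over all genes for the correlations of Slc1a5, Ddit4 and Cth by Pearson's permutation test were 0.995, 0.959 and 0.616.

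**Figure D4:**
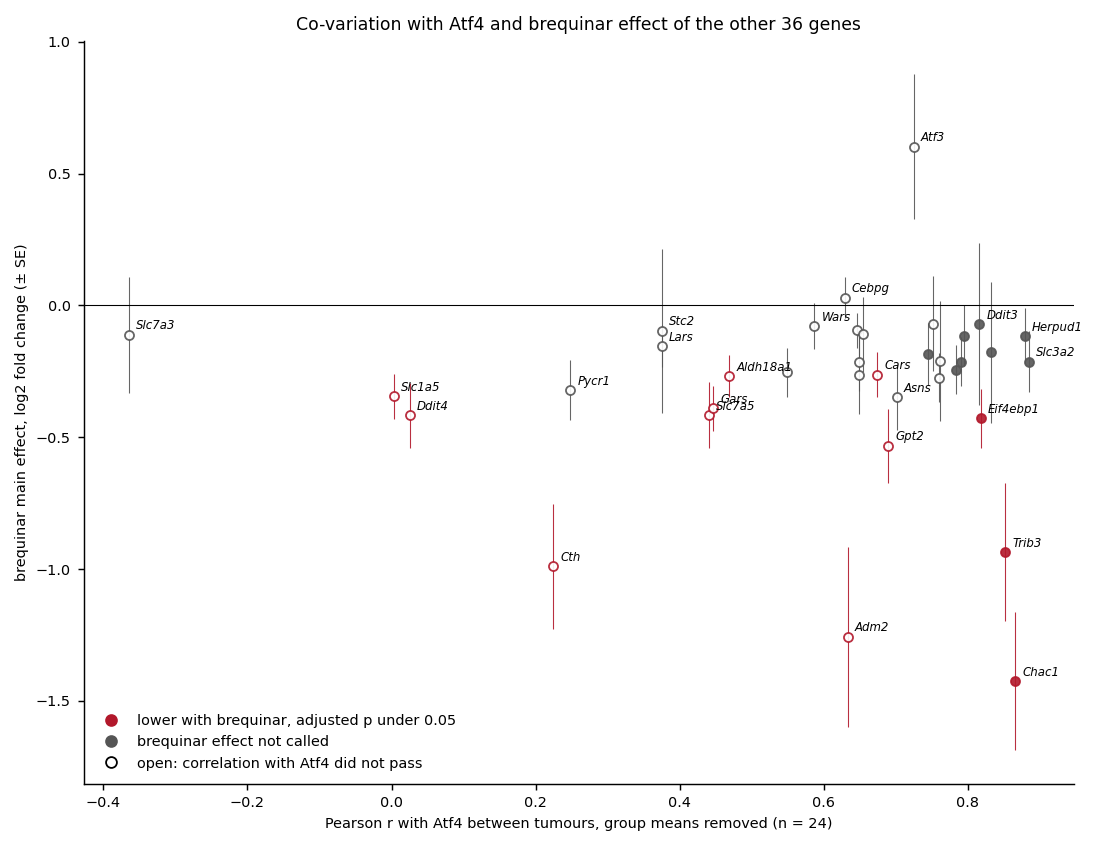
Brequinar main effect (log2 fold change ± SE, vertical) against Pearson's r with Atf4 between tumours with group means removed (horizontal, n = 24), 1 point per gene for 36 genes; red points were called lower, and filled points passed both correlation tests. Chac1 and Trib3 lie at the lower right, whereas Slc1a5, Ddit4 and Cth are lower with brequinar at r under 0.25.

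Levels were also taken per kilobase of exon, with length counted over all annotated exons of a gene together. This length can exceed that of the transcript present, so the order between genes is approximate. On this scale Atf4 itself was the most abundant of the 37. It stood at 91.0 and 98.1 CPM per kb in BRQ+PD-1 and BRQ+IgG2a, against 133 and 129 CPM per kb in PD-1 and IgG2a. Cebpb, Gars, Atf5 and Slc3a2 followed, with means over the 4 groups of 92.8, 77.4, 76.7 and 72.8 CPM per kb. The genes with the lowest estimates lay far down this order: Chac1 had 5.73 and 5.49 CPM per kb with brequinar, against 16.0 and 14.1 in PD-1 and IgG2a, Cth 2.87 and 3.15 against 6.01 and 5.95, and Adm2 0.662 and 0.462 against 0.956 and 1.82. Slc7a3 was the scarcest at 0.200 CPM per kb in each brequinar group, against 0.216 in PD-1 and in IgG2a.

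Of the 13 genes called lower in the main effect, 8 had a promoter window and 2 of these held a CARE match, Chac1 and Gars. Of the 24 not called, 20 had a window and 8 held a match.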

How the data were processed

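Each of the 24 tumours gave 1 RNA library. The authors deposited raw read counts per Ensembl gene; per the submitters' processing notes the reads passed Trim Galore 0.6.7, FastQC 0.11.8 and MultiQC 1.11, and HISAT2 2.2.1 and StringTie 2.2.1 are named, with build GRCm39. No source used here names the counting program, the annotation or whether strand was used, so reads of overlapping or near-identical genes may be shared. Per the labels, RNA was extracted from tumour lysate with a column kit and passed a quality threshold. Symbols and exonic lengths came from GENCODE M21. The deposited FPKM and TPM tables were not used.

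Counts of 19106205 to 34282319 per library were fitted with edgeR 4.0.16 in R 4.3.3 (robust quasi-likelihood, TMM, filter on low counts by group, 1 coefficient per group over all 24 libraries, 20 residual degrees of freedom). Benjamini-Hochberg adjustment ran over all 16029 genes tested, with a threshold of 0.05, and an SE is the fold change over the root of F. DESeq2 1.42.0, other size factors, no filter, a replicate block and leaving out libraries were alternatives. All 60 replicate pairs differed by 9.89 to 231 times the sampling noise. Log2 CPM used a prior count of 2. The permutation p of the correlations was adjusted over all genes, a choice made after seeing the data in place of the list alone. Python 3.11.15, numpy 2.4.6, pandas 2.3.3 and scipy 1.17.1 were used. Scripts were tested on simulated data.

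The 37 genes and the other lists were chosen with earlier results of these data known. All 37 genes were examined, and those called lower in a comparison, with the uncalled genes of each role, are named. The sequence and position of 1 promoter match are not reported here.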

Additional observations from a re-analysis of the deposited data

Results flagged for a closer look

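Within groups of 6 tumours, a level counted as far from the others when its gap to the nearest tumour was a larger part of the group's range than the 95% critical value of Dixon's test. This held in 19 of 148 gene and group combinations, each time for the highest tumour. The test's chance rate of about 1 in 20 assumes normally distributed values, and CPM was used here without a log scale. That rate is therefore no measure of chance for these flags, and the genes of 1 tumour are not independent.

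BRQ+IgG2a replicate 5 stood apart for Atf3 (50.4 CPM), Ddit3 (78.1 CPM), Nupr1 (179 CPM), Ppp1r15a (86.3 CPM), Eif4ebp1 (159 CPM), Sars (352 CPM), Xpot (179 CPM) and Herpud1 (91.0 CPM). PD-1 replicate 2 stood apart for Slc7a5 (389 CPM), Gpt2 (96.8 CPM) and Aars (320 CPM), PD-1 replicate 4 for Cebpb (198 CPM) and PD-1 replicate 5 for Stc2 (32.8 CPM). IgG2a replicate 4 stood apart for Ddit3 (56.4 CPM), Trib3 (103 CPM), Ppp1r15a (76.0 CPM), Slc3a2 (381 CPM), Xpot (203 CPM) and Adm2 (5.97 CPM). The 2 tumours with the highest Ddit3 were not muscle-rich: Acta1 was at 0.558 CPM in BRQ+IgG2a replicate 5 and at 0.889 CPM in IgG2a replicate 4.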

How the results depend on the processing

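No estimate of a called gene changed sign under the alternatives run. Of the 37 genes, BRQ+PD-1 against PD-1 had 4 called in the fit reported, 2 without an expression filter, 8 with DESeq2, 2 with the replicate block and 10 without the 2 tumours of highest Ddit3. BRQ+IgG2a against IgG2a had 2, and 1 without a filter, 0 with the replicate block and 1 without the 4 muscle-rich libraries. The main effect had 13, 9 with the replicate block and 8 without the muscle-rich libraries. BRQ+PD-1 against IgG2a had 1, 3 with DESeq2 and 0 without a filter, with the replicate block, without the muscle-rich libraries or without the 2 tumours of highest Ddit3. The last 2 settings were chosen after seeing the data, and where calls rose or fell the cause was not tested. The 2 tumours of highest Ddit3, BRQ+IgG2a replicate 5 and IgG2a replicate 4, were picked by the level of a listed gene. Neither belongs to BRQ+PD-1 against PD-1, which shares the fit and its estimate of spread with them.

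Leaving out 1 library gave 1 to 4 calls in BRQ+PD-1 against PD-1 (1 without PD-1 replicate 2), 0 to 4 in BRQ+IgG2a against IgG2a (0 without IgG2a replicate 4, 4 without BRQ+IgG2a replicate 5), 9 to 22 in the main effect (9 without PD-1 replicate 2, 22 without BRQ+IgG2a replicate 5), 0 to 2 in BRQ+PD-1 against IgG2a and 0 to 0 in the others.

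Over all genes, 808 were called in BRQ+PD-1 against PD-1, 431 without a filter, 1363 with DESeq2, 411 with the block and 502 without the muscle-rich libraries. In BRQ+IgG2a against IgG2a these counts were 554, 377, 876, 361 and 657. BRQ+PD-1 against IgG2a had 627, 297, 1553, 285 and 404.

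Replicate numbers did not pair the tumours: 15 of 36 same-number pairs had correlated deviations over 0.1, the lowest r was -0.64, and 1 of 24 libraries correlated best with its own number. With the block, Atf4 (adjusted p 0.0681), Trib3 (0.0834), Cars (0.0792) and Adm2 (0.0614) lost their main-effect calls (edgeR). Depth limits Adm2, Slc7a3 and Fgf21, with few counts per tumour.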
